A study of Mus musculus with 2 samples.

Results

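Somites are blocks of mesoderm that bud from the presomitic mesoderm and later give rise to vertebrae, ribs, skeletal muscle and dermis. Cells leaving the presomitic mesoderm pass a determination front, where Mesp2 and Ripply2 set the next segment border, and switch on Meox1 and Tcf15. Each somite then divides into a rostral and a caudal compartment, marked by Tbx18 and Uncx, and into a dorsal dermomyotome and a ventral sclerotome. The cells described here are gastruloid cells of this kind. They were chosen by their own counts: at least 2 UMIs (unique molecular identifiers, counted transcript molecules) of Meox1, at least 2 of Tcf15 and 0 of T, among cells with at least 1000 genes detected and at most 10% mitochondrial UMIs. This rule found 1008 somite cells among 13826 cells, 387 of 7180 in the dTAG-13 library and 621 of 6646 in the untreated library.

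Gastruloids are grown from mouse embryonic stem cells, which aggregate and differentiate into tissues of the early embryo. Both libraries came from the E14_triple reporter line with an HA-FKBP12F36V degron on the endogenous Zeb2 protein, which the small molecule dTAG-13 targets for degradation. The dTAG-13 gastruloids received 100 nM dTAG-13 at 72 h and again at 96 h, and the untreated gastruloids carry the same tag. Both were seeded from 300 cells, given 3 µM of the WNT agonist CHIR99021 at 48 h and placed in 10% Matrigel at 96 h. About 32 gastruloids were pooled per library, so gastruloids cannot be told apart and there was 1 library per group. No difference between the libraries has a replicate check, no p-value is given, and every interval is a 95% interval of counting error only. The control is labelled untreated, but the study's design text speaks of DMSO. Live cells were sorted with 7-AAD, a dye that enters dead cells, and 10000 cells were processed per library.

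The somite cells held 10560538 UMIs in the dTAG-13 library and 15742169 in the untreated library, with a median of 23751 and 21669 UMIs per cell. All other cells had medians of 20569 UMIs per cell with dTAG-13 and 20391 untreated. The median mitochondrial share of somite cells was 4.71% with dTAG-13 and 4.77% untreated. The libraries shared 14 cell barcodes, among them 0 somite cells of the dTAG-13 library and 3 of the untreated library. Levels are UMIs summed over a set of cells and scaled to a total of 1000000 (CPM). Ratios are log2 ratios with a prior of 1 CPM, over genes averaging at least 5 CPM across the summed cell sets compared, and their intervals leave the prior out. A gene that is low in one set reaches that mean only if it is high in the other, so gene lists are counted over every member, with no limit on low values.

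The cells carried the genes that mark paraxial mesoderm beyond those that chose them. Prrx2, a homeobox gene of mesenchyme, stood at 245 CPM in somite cells and 25.1 CPM in all other cells of the dTAG-13 library, and at 225 and 27.3 CPM in the untreated library (log2 ratio 3.24 and 3.00). Fst, which encodes the activin antagonist follistatin, stood at 286 against 32.8 CPM with dTAG-13 and 261 against 37.4 CPM untreated. Twist1, a bHLH factor of mesenchyme, had 125 against 14.8 CPM with dTAG-13 and 117 against 18.8 CPM untreated. Foxc2, a forkhead factor needed for somite formation, had 77.7 against 4.65 CPM with dTAG-13 and 70.1 against 6.87 CPM untreated. All 4 of these markers were at least 2-fold higher in somite cells in both libraries. Anterior presomitic mesoderm cells had at least 2 UMIs of Mesp2 or of Ripply2 and did not meet the somite rule. Cells with these genes that met the rule were counted as somite cells, and the part of this split in the shares was not tested. Before thinning, 50% of the anterior cells with dTAG-13 and 42% untreated held T. Anterior cells (46 with dTAG-13, 48 untreated, each thinned to 5000 UMIs) held the 4 markers too. Foxc2 was found in 23.9% of them with dTAG-13 and 25% untreated, against 34.1% and 30% of thinned somite cells. Twist1 shares were 28.3% and 27.1% against 43.9% and 42.7%, and intervals overlapped for both genes. Prrx2 (19.6% and 37.5% against 64.9% and 59.4%) and Fst (30.4% and 27.1% against 56.1% and 53.2%) were found less often, with intervals apart. The 4 markers were chosen with earlier results of these data known, so this is a description and no check of the label. Over all genes with a UMI, 1.17% of 23773 were at least 2-fold higher in somite cells with dTAG-13 and 3.58% were lower. In the untreated library 0.977% of 23344 were higher and 2.56% lower.

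The values that chose the cells are given as description. Somite cells had 2 to 40 Meox1 UMIs in the dTAG-13 library and 2 to 55 in the untreated library, with a median of 7 in both. They had 2 to 53 Tcf15 UMIs with dTAG-13 (median 7) and 2 to 43 untreated (median 8). Cells just inside the rule, with 2 UMIs of either gene, had 241 CPM of Prrx2 with dTAG-13 (81 cells) and 204 CPM untreated (95 cells). Cells just outside, with 1 UMI of either gene, had 178 CPM with dTAG-13 (136 cells) and 157 CPM untreated (168 cells). Cells just outside thus held less Prrx2, yet still several times that of other cells, and they held the pluripotency gene Dppa5a at 430 CPM with dTAG-13 and 419 CPM untreated. Cells just inside held Dppa5a at 54.9 CPM with dTAG-13 and 233 CPM untreated. Somite cells with 3 or more UMIs of both genes held it at 75.5 and 81.1 CPM.

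Cells with Tcf15 but no Meox1 looked different. Cells with at least 2 Tcf15 UMIs and no Meox1 numbered 311 with dTAG-13 and 306 untreated. Their Dppa5a level was 2124 CPM with dTAG-13 and 2399 CPM untreated, against 71.8 and 101 CPM in somite cells of the same libraries. Their Prrx2 level was 34.2 CPM with dTAG-13 and 33.4 CPM untreated. Cells with Meox1 and no Tcf15 numbered 140 with dTAG-13 and 145 untreated. They had 189 and 207 CPM of Prrx2, but 7.88 and 18.1 CPM of the dermomyotome gene Pax3, against 71.5 and 116 CPM in somite cells. A further 97 cells with dTAG-13 and 164 untreated met the Meox1 and Tcf15 thresholds but held T, of which 54 and 92 held a single T UMI. These T-positive cells had medians of 43398 and 39082.5 UMIs, above those of the somite cells.

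The genes most raised in somite cells in both libraries included further paraxial mesoderm genes. Aldh1a2, the enzyme that makes retinoic acid in somites, stood at 385 CPM in somite cells against 33.2 CPM in other cells with dTAG-13, and at 287 against 42.2 CPM untreated. The other genes in this group were Pax3, Foxc1, Mesp1, Col26a1, Clu, Rasgrp3 and Dact1, with log2 ratios from 2.53 to 2.98 with dTAG-13 and from 2.06 to 2.81 untreated. Dact1 is a modulator of WNT signalling and Clu encodes clusterin. The 6 genes most depleted in somite cells were Fgf17, Epcam, Klf2, Tdh, L1td1 and Hspb1. Fgf17 is a growth factor of the tail bud, Epcam an epithelial adhesion molecule, and Klf2, Tdh and L1td1 are expressed in pluripotent cells.

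**Figure D1:**
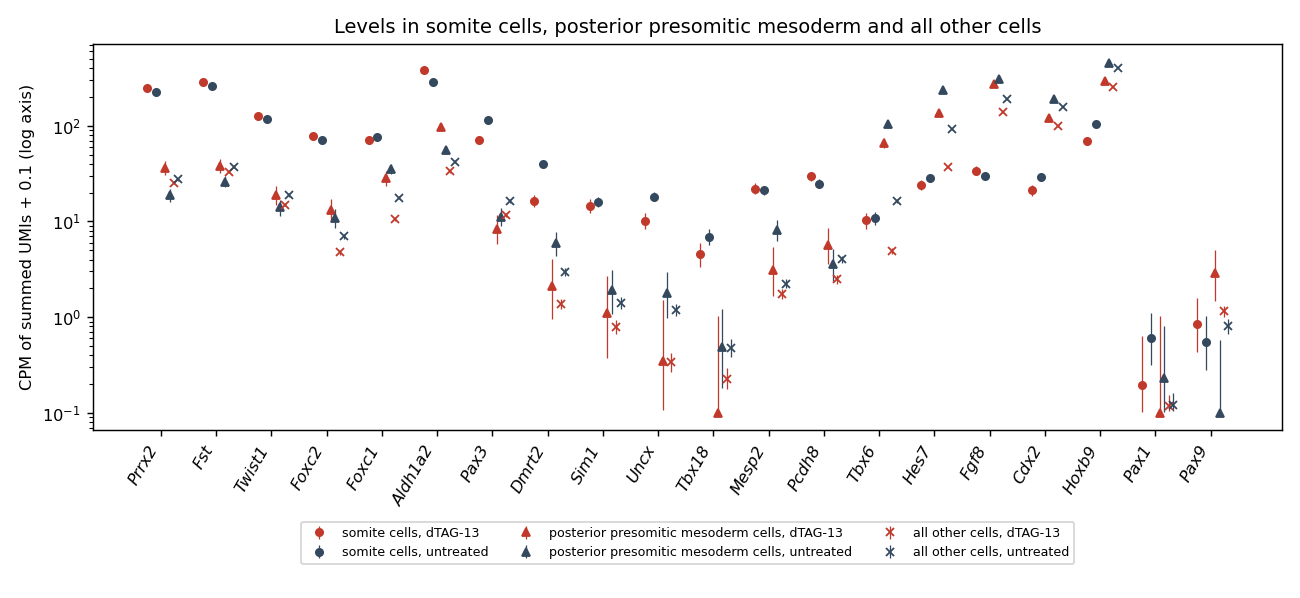
Levels of 20 genes in somite cells (circles), posterior presomitic mesoderm cells (triangles) and all other cells (crosses) of the dTAG-13 (red) and untreated (dark) libraries, as CPM of summed UMIs plus 0.1 on a log axis. Bars are 95% Poisson intervals of counting error. Genes from Prrx2 to Pcdh8 are highest in somite cells, genes of the tail bud from Tbx6 to Hoxb9 are higher in posterior presomitic mesoderm, and Pax1 and Pax9 lie below 1 CPM in somite cells.

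Posterior presomitic mesoderm cells, with at least 2 UMIs of both Tbx6 and T, gave an earlier stage (86 cells with dTAG-13 and 253 untreated). Tbx6 and T chose the posterior cells and Meox1, Tcf15 and T the somite cells, so these genes are left out of the counts that follow. Of the other 11 genes on the posterior presomitic mesoderm list, 10 were at least 2-fold lower in somite cells with dTAG-13, where 3.24% of all genes with a UMI were. In the untreated library all 11 were lower, where 2.19% of all were. The exception with dTAG-13 was the caudal homeobox gene Cdx1, at a log2 ratio of -0.95. Of 10 dermomyotome genes 7 were at least 2-fold higher in somite than in posterior cells in both libraries, against 1.75% of all genes with dTAG-13 and 1.81% untreated. The growth factor gene Fgf8 stood at 33.8 CPM in somite cells against 275 CPM in posterior cells with dTAG-13, and at 29.6 against 305 CPM untreated. The segmentation clock gene Hes7 stood at 24.1 against 136 CPM with dTAG-13 and 28.1 against 234 CPM untreated. Cdx2, a relative of Cdx1, stood at 21.2 against 120 CPM with dTAG-13 and 29.0 against 192 CPM untreated.

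Some somite cells still carried the determination front program. Cells with a UMI of Mesp2 or Ripply2 numbered 79 with dTAG-13 and 114 untreated. Compared with the remaining somite cells they had more Pcdh8, the protocadherin of the segment border, at 94.5 against 9.97 CPM with dTAG-13 and 98.8 against 8.52 CPM untreated. Mesp1 stood at 254 against 31.9 CPM with dTAG-13 and 217 against 16.3 CPM untreated. The Notch ligand Dll1 stood at 114 against 22.02 CPM with dTAG-13 and 188 against 24.7 CPM untreated. Fgf18, Pcdh19, Synm, Dll3, Rnf213, Notch1 and Rspo3 were also higher in the Mesp2 or Ripply2 cells of both libraries. Igfbp5, Cdh11, Mest, Col26a1 and Rdh10 were higher in the remaining somite cells. These genes were picked by their ratios in both libraries, so the ratios are a description. Mesp2 itself was at 21.97 CPM with dTAG-13 and 21.1 CPM untreated over all somite cells.

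Markers of the rostral and caudal compartments were rarely found in the same cell. Uncx, the caudal homeobox gene (chromosome 5, 139543494 to 139548179, plus strand, GRCm38), was detected in 39 somite cells with dTAG-13 and 109 untreated. Tbx18, the rostral T-box gene (chromosome 9, 87702800 to 87731260, minus strand), was detected in 30 cells with dTAG-13 and 74 untreated. These counts, and the shares that follow, use all UMIs of a cell. Both genes were detected together in 0 cells with dTAG-13 and 2 cells untreated. Among Uncx cells, 0% with dTAG-13 and 1.83% untreated held Tbx18, against 8.62% and 14.1% of the cells without Uncx. In pluripotent cells (at least 2 UMIs of Zfp42 and of Dppa5a), which should lack both genes, Uncx was found in 0 of 784 cells with dTAG-13 and 0.192% of cells untreated, at medians of 30022.5 and 27610.5 UMIs. Tbx18 was found there in 0.383% of cells with dTAG-13 and 0.575% untreated.

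Other genes also differed in the same direction in both libraries, comparing cells with Uncx alone (39 with dTAG-13, 107 untreated) and cells with Tbx18 alone (30 and 72). Dmrt2, a DM-domain factor of the dermomyotome, was higher with Uncx by a log2 ratio of 2.57 (1.58 to 4.09) with dTAG-13 and 1.72 (1.33 to 2.19) untreated. Foxd1, Lhx1, Sp5, Ablim1, Tubb2b, Rdh10 and Hspa13 were higher with Uncx as well. The Notch targets Nrarp (2.38 with dTAG-13, 1.44 untreated) and Hey1 (1.35 and 1.36) lay on the same caudal side. Rostral cells had more Pcdh8, with log2 ratios of Uncx over Tbx18 cells of -3.75 with dTAG-13 and -1.97 untreated. The Eph receptor gene Epha4 (-2.18 and -0.87) and the segment border gene Ripply2 (-2.37 and -2.67) were also on the rostral side. Rnd3, Slc2a3, Hoxaas3, Arg1, Lef1 and Nrp2 were higher in Tbx18 cells too. Not every gene on the rostral and caudal lists followed this split. Of the caudal list, the Notch ligand gene Dll1 had ratios of 0.39 (-0.86 to 1.80) with dTAG-13 and -0.36 (-0.90 to 0.16) untreated. The caudal ephrin gene Efnb2 lay on the caudal side, at 0.54 (-0.08 to 1.21) with dTAG-13, an interval that included 0, and 0.84 (0.42 to 1.33) untreated. Of the rostral list, Mesp2 had -0.20 (-4.10 to 3.48) and 0.23 (-0.63 to 1.18), and the secreted antagonist gene Cer1 had -0.73 (-1.56 to 0.03) and 0.03 (-0.70 to 0.80). The rostral Notch ligand gene Dll3 lay on the rostral side, at -0.45 (-1.14 to 0.22) with dTAG-13, an interval that included 0, and -0.67 (-1.14 to -0.23) untreated. General somite genes were mixed. Twist1 (-0.17 with dTAG-13, 0.05 untreated), Meox1 (-0.04 and -0.03) and Prrx2 (-0.00211 and 0.17) had intervals that included 0 in both libraries. Tcf15 was higher in Uncx cells, by 0.48 (0.26 to 0.70) with dTAG-13 and 0.32 (0.20 to 0.45) untreated. Foxc2 had -0.52 (-1.02 to -0.04) with dTAG-13 and -0.18 (-0.52 to 0.16) untreated, and Fst had -0.25 (-0.48 to -0.02) and -0.11 (-0.27 to 0.04). The leading genes were picked by these same ratios, which are therefore a description.

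**Figure D2:**
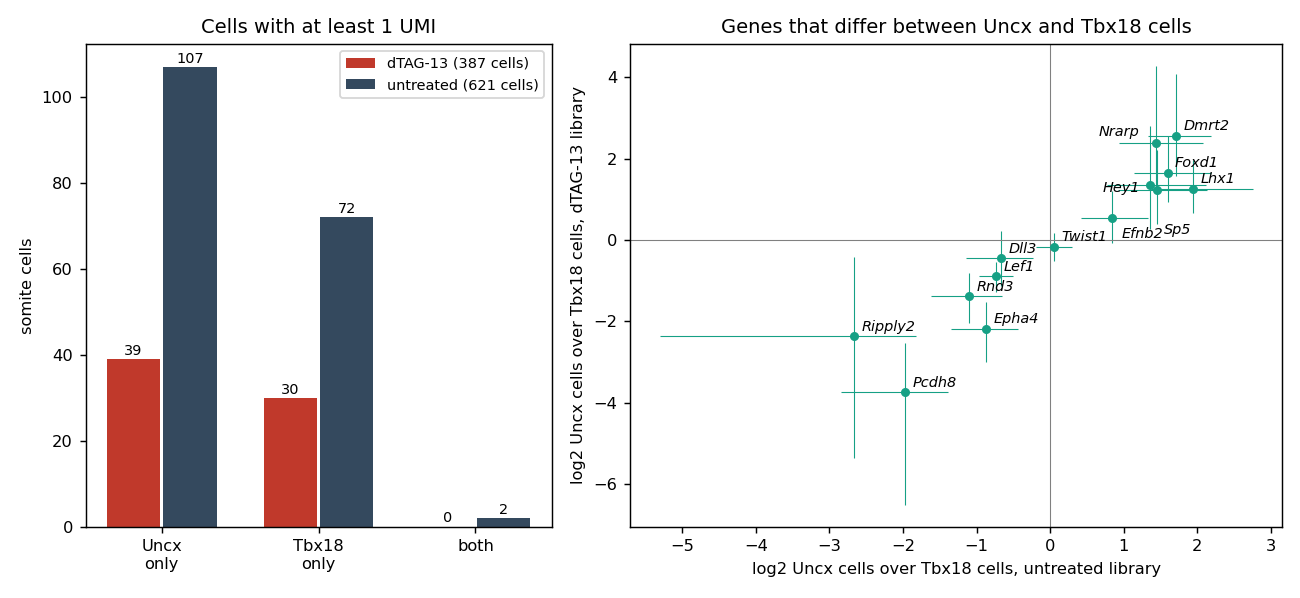
Left, number of somite cells with at least 1 UMI of Uncx only, Tbx18 only or both, in the dTAG-13 (red) and untreated (dark) libraries. Right, log2 ratio of Uncx cells over Tbx18 cells for named genes, untreated library on the x axis and dTAG-13 library on the y axis, with 95% counting intervals. Dmrt2, Nrarp, Hey1 and Foxd1 lie at upper right and Pcdh8, Ripply2 and Epha4 at lower left, on the same side in both libraries.

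Most dermomyotome genes were higher in somite cells. Of the sclerotome list, the defining factors Pax1, Pax9 and Nkx3-2 were at or near 0, while the list as a whole summed higher in somite cells. Of 10 dermomyotome genes 7 were at least 2-fold higher in somite cells than in other cells in both libraries, with a median log2 ratio over the list of 1.98 with dTAG-13 and 1.97 untreated, against medians of -0.01 and -0.03 over all genes averaging at least 5 CPM. Of all genes with a UMI, 1.17% were at least 2-fold higher with dTAG-13 and 0.977% untreated. The 7 dermomyotome genes included Pax3, Dmrt2, Sim1, Lbx1, Eya1 and Met. Pax7 was lower instead, at 1.42 CPM in somite cells against 3.91 CPM in other cells with dTAG-13 (-1.02), and at 1.33 against 2.68 CPM untreated (-0.66). Of the sclerotome factors, Nkx3-2 had 0 UMIs in both libraries. A limit set at 3 UMIs, in place of the exact Poisson interval, corresponds to 0.284 CPM with dTAG-13 and 0.191 CPM untreated. Pax1 had 1 UMI with dTAG-13 and 8 untreated, and Pax9 had 8 with dTAG-13 and 7 untreated. Foxd1, also on the sclerotome list, was at least 2-fold higher in both libraries, and 0 of the 8 genes on that list were lower. That list summed to 55.7 CPM in somite cells against 36.5 CPM in other cells with dTAG-13. Untreated, the sums were 54.9 against 32.8 CPM. The muscle regulators Myod1 and Myog had 1 and 0 UMIs with dTAG-13 and 0 of each untreated, and Myf5 had 10 and 14 UMIs. The tendon factor Scx stood at 0.473 CPM with dTAG-13 and 0.826 CPM untreated.

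Posterior Hox genes were lower in somite cells than in other cells. Of 15 Hox genes of groups 5 to 9, 9 were at least 2-fold lower in somite cells with dTAG-13 (median log2 ratio -1.18) and 10 untreated (median -1.34), and 0 were higher in either library. Of all genes with a UMI, 3.58% were lower with dTAG-13 and 2.56% untreated. Hoxb9 stood at 68.4 CPM in somite cells against 253 CPM in other cells with dTAG-13, and at 104 against 402 CPM untreated. Hox genes of groups 1 to 4 had a median log2 ratio of 0.62 with dTAG-13 and -0.08 untreated. Hoxd1 and Hoxd3 of that group were at least 2-fold higher in somite cells in both libraries. Hox genes of groups 10 to 13 summed to 1.14 CPM with dTAG-13 and 3.11 CPM untreated in somite cells, with 7 and 6 of the 12 genes at 0.

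Genes of segmentation, adhesion and signalling separated somite cells from other cells as follows. Over all genes with a UMI, 1.17% were at least 2-fold higher in somite cells and 3.58% lower with dTAG-13, and 0.977% and 2.56% untreated. Of 9 determination front genes 8 were at least 2-fold higher with dTAG-13 and 7 untreated, and 0 were lower. The Notch receptor gene Notch1 stood at 92.6 against 29.7 CPM with dTAG-13 and 90.8 against 39.9 CPM untreated. Of 18 matrix and adhesion genes 6 were higher with dTAG-13 and 4 untreated. Pcdh19, a protocadherin, stood at 113 against 12.8 CPM with dTAG-13 and 85.1 against 20.8 CPM untreated, and Cdh11, a mesenchymal cadherin, at 45.9 against 10.8 CPM with dTAG-13 and 53.6 against 14.9 CPM untreated. The hedgehog co-receptor genes Gas1 and Boc were higher by log2 ratios of 1.64 and 1.34 with dTAG-13 and 1.42 and 1.11 untreated, whereas the hedgehog target Ptch1 differed by 0.03 and 0.02. Of FGF genes, Fgf18 was higher (1.75 with dTAG-13, 1.99 untreated) while Fgf8 and Fgf17 were lower. Of 17 WNT response genes 5 were lower with dTAG-13 and 7 untreated, among them Dkk1, Sp8 and Wnt5b. Of 29 epithelial genes 28 were lower with dTAG-13 and 22 untreated.

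Somite cells took up a smaller share of the dTAG-13 library. They made up 5.39% of cells with dTAG-13 (4.88 to 5.94) and 9.34% of untreated cells (8.65 to 10.1), a difference of -3.95 percentage points. The share was lower with dTAG-13 under each of the cell filters and rules tried, with the difference between -5.07 and -2.79 points. Each share depends on all other cells of its library, and with 1 library per group its spread between pools of gastruloids is not known.

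Zeb2 transcript (chromosome 2, 44983632 to 45117395, minus strand) was higher in somite cells of the dTAG-13 library, at 106 CPM (99.8 to 112) against 73.1 CPM untreated (69.0 to 77.5), with a log2 ratio of 0.53. The degron removes protein rather than RNA, so the transcript is no check of the labels. The other cells had a similar ratio of 0.47. Zeb1, the related zinc-finger gene, differed little in somite cells (60.5 CPM with dTAG-13, 54.2 CPM untreated, log2 ratio 0.15), whereas its ratio in other cells was -0.66.

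The somite markers differed little between the libraries. The 4 markers Prrx2, Fst, Twist1 and Foxc2 had log2 ratios of dTAG-13 over untreated from 0.09 to 0.15, and 0 of 4 passed 1.5-fold. Over all 9213 genes averaging at least 5 CPM, 1.09% were at least 1.5-fold higher with dTAG-13 (100 genes) and 0.619% at least 1.5-fold lower (57 genes), with a median log2 ratio of 0.03. Over all 19373 genes with a UMI, 1.93% were higher and 1.2% lower. With TMM or DESeq2 size factors in place of CPM, 81 genes were higher and 78 lower, so the share of higher calls was 50.9% in place of 63.7%. In the other cells 2.53% of 9569 genes averaging at least 5 CPM were higher and 1.14% lower, and 1.81% and 0.694% of 24637 genes with a UMI. None of the 12 S phase, 14 G2 and M phase or 13 mitochondrial genes listed passed 1.5-fold in somite cells.

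Several dermomyotome genes were lower with dTAG-13. Of 10 members 3 were at least 1.5-fold lower and 0 higher, with a median log2 ratio of -0.25, where 1.2% of all genes with a UMI were lower. Dmrt2 (chromosome 19, 25672411 to 25678991, plus strand) stood at 16.3 CPM with dTAG-13 (13.9 to 18.9) and 39.4 CPM untreated (36.4 to 42.7), the lowest ratio of any gene averaging at least 20 CPM (-1.23). Pax3 (chromosome 1, 78101267 to 78197134, minus strand) stood at 71.5 CPM with dTAG-13 and 116 CPM untreated (-0.69). Lbx1, a factor of migrating limb muscle precursors, stood at 3.79 CPM with dTAG-13 and 6.35 CPM untreated (-0.62). Sim1, Met and Eya1 had ratios from -0.12 to 0.30 and did not pass the limit. Pax3 was detected in 27.9% of somite cells with dTAG-13 and 38.5% untreated after each cell was thinned to 5000 UMIs, which left out 1 untreated cell. Pluripotent cells thinned in the same way gave 1.15% and 0.192%. Before thinning the Pax3 shares were 58.1% with dTAG-13 and 70.5% untreated, at the somite medians of 23751 and 21669 UMIs.

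Among other genes lower with dTAG-13 was Ebf1, an early B cell factor gene also expressed in somites, at 42.2 CPM with dTAG-13 and 83.9 CPM untreated (-0.97). Its ratio in the other cells was -0.01. Mest, an imprinted gene of mesoderm, stood at 208 CPM with dTAG-13 and 357 CPM untreated (-0.78). Gas1, a hedgehog co-receptor gene, stood at 51.4 CPM with dTAG-13 and 88.9 CPM untreated (-0.78), beside Igfbp5, Phlda1 and Gadd45g at -0.79, -0.78 and -0.85. Meox2, the partner of Meox1, stood at 11.3 CPM with dTAG-13 and 18.3 CPM untreated (-0.65). The histone gene Hist1h2ap (-1.15) has near-identical copies and its count is uncertain. Hoxb5os (-1.13) overlaps the Hoxb cluster, and its reads cannot be fully told from those of overlapping genes.

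The caudal gene Uncx and the rostral gene Tbx18 both had negative ratios with dTAG-13, and only Uncx passed the 1.5-fold limit. Uncx stood at 10.0 CPM with dTAG-13 (8.22 to 12.1) and 18.1 CPM untreated (16.1 to 20.3), a log2 ratio of -0.79. Tbx18 stood at 4.45 CPM with dTAG-13 (3.27 to 5.92) and 6.80 CPM untreated (5.57 to 8.21), with a ratio of -0.52, within the 1.5-fold limit. After thinning, Uncx was detected in 3.10% of somite cells with dTAG-13 (1.61 to 5.35) and 7.26% untreated (5.34 to 9.59). Tbx18 was detected in 0.775% with dTAG-13 (3 cells, 0.16 to 2.25) and 4.52% untreated (28 cells, 3.02 to 6.46). Unthinned shares were 10.1% and 17.6% for Uncx and 7.75% and 11.9% for Tbx18. The Notch targets Nrarp (19.9 CPM with dTAG-13, 34.6 CPM untreated) and Hes5 (6.06 and 20.96 CPM) were at least 1.5-fold lower, and the other 12 of 14 Notch and clock genes were not. Over all genes with a UMI, 1.2% were lower and 1.93% higher. Hes5 also marks neural cells and was lower in the other cells too (-1.81). Of the 9 determination front genes only Mesp1 passed 1.5-fold, at 83.1 CPM with dTAG-13 and 52.3 CPM untreated (0.66). With every cell thinned to 10000 UMIs before the rule was applied, the Mesp1 ratio was 0.29.

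**Figure D3:**
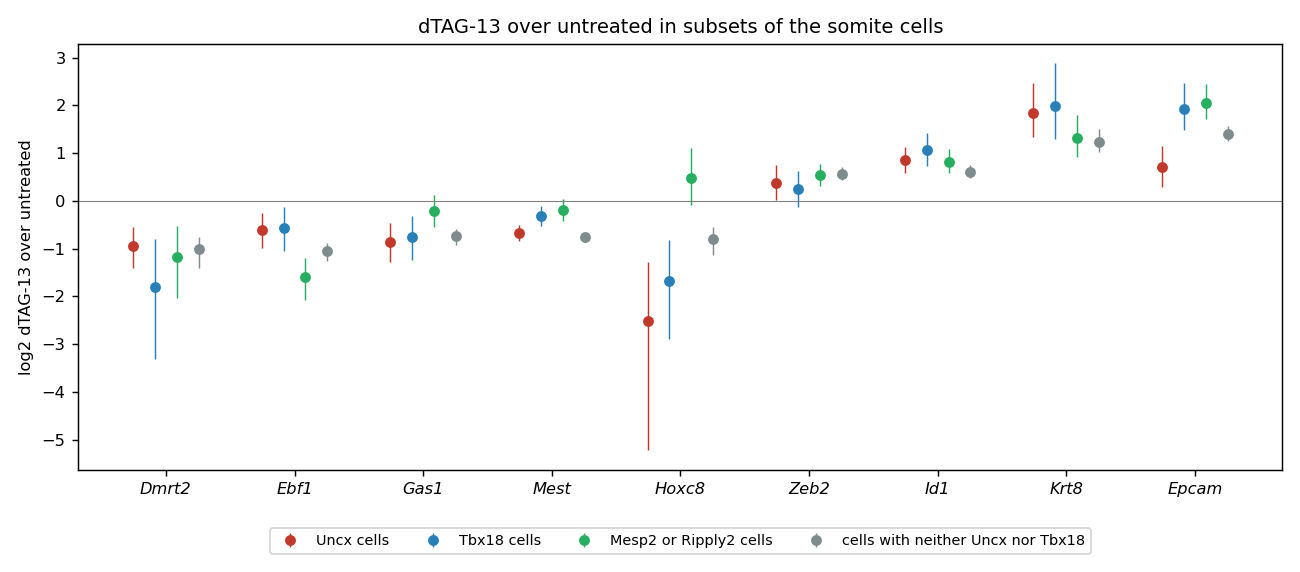
Log2 ratio of dTAG-13 over untreated for 9 genes within 4 subsets of the somite cells, with 95% counting intervals: Uncx cells (red), Tbx18 cells (blue), Mesp2 or Ripply2 cells (green) and cells with neither Uncx nor Tbx18 (grey). Dmrt2 and Ebf1 lie below 0 and Id1, Krt8 and Epcam above 0 in all 4 subsets, while Hoxc8 lies below 0 in 3 and above 0 in the Mesp2 or Ripply2 cells. The Mesp2 or Ripply2 cells overlap the other subsets.

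Dmrt2 was lower with dTAG-13 within each subset of the somite cells examined. Its log2 ratio was -0.95 (-1.40 to -0.55) in Uncx cells, -1.80 (-3.31 to -0.79) in Tbx18 cells, -1.17 (-2.03 to -0.53) in Mesp2 or Ripply2 cells and -1.02 (-1.40 to -0.75) in cells with neither Uncx nor Tbx18. It was -1.20 in somite cells with Pax3 and -0.78 in those without. Ebf1 was also lower in every subset, from -0.57 in Tbx18 cells to -1.59 in Mesp2 or Ripply2 cells. Hoxc8 differed between subsets: -2.51 (-5.23 to -1.28) in Uncx cells and -1.69 (-2.90 to -0.82) in Tbx18 cells, but 0.48 (-0.09 to 1.11) in Mesp2 or Ripply2 cells. Its level in Uncx cells with dTAG-13 was only 2.61 CPM. Hoxb9 had -2.41 (-3.15 to -1.85) in Uncx cells, -1.32 (-1.79 to -0.91) in Tbx18 cells and 0.43 (0.17 to 0.69) in Mesp2 or Ripply2 cells. Hoxc6 (-0.01) and Hoxa9 (-0.27) had intervals that included 0 in Mesp2 or Ripply2 cells. The subsets hold 30 to 318 cells with dTAG-13, and differences between them were not tested. Mesp2 or Ripply2 cells were taken from all somite cells, so they share cells with the other subsets.

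More of the posterior than of the anterior Hox genes were lower with dTAG-13, and most of the genes lower were of the HoxC cluster. Of 15 genes of groups 5 to 9, 6 were at least 1.5-fold lower in somite cells and 0 higher (median -0.38), where 1.2% of all genes with a UMI were lower. These were Hoxa9 (-1.20), Hoxc9 (-1.04), Hoxc8 (-0.94), Hoxc6 (-0.88), Hoxc5 (-0.61) and Hoxb9 (-0.60), of which Hoxc5 was low, at 0.947 CPM with dTAG-13 and 1.97 CPM untreated. Hoxc8 stood at 14.1 CPM with dTAG-13 and 28.0 CPM untreated, and Hoxb9 at 68.4 and 104 CPM. Outside the HoxC cluster, Hoxa5 (0.01), Hoxb5 (0.06), Hoxd9 (-0.19), Hoxb7 (-0.23), Hoxa7 (-0.25), Hoxb8 (-0.38) and Hoxb6 (-0.39) did not pass the limit. Of groups 1 to 4, 1 of 12 was lower, the HoxC gene Hoxc4 (-1.01), and the median was -0.11. Position along the axis and cluster were not told apart. In the other cells, 10 of 12 genes of groups 1 to 4 were at least 1.5-fold lower with a median of -0.90, and 9 of 15 of groups 5 to 9 with a median of -0.78. There 0.694% of all genes with a UMI were lower. Hoxb1, for instance, had a ratio of 0.15 (0.02 to 0.28) in somite cells and -0.95 in the other cells, and Hoxd4 had -0.34 and -1.45. In posterior presomitic mesoderm cells, where 8.29% of 17897 genes with a UMI were higher and 5.51% lower, 5 of 12 genes of groups 1 to 4 were lower (median -0.46) and 7 of 15 of groups 5 to 9 (median -0.53). The other cells held 784 pluripotent and 86 posterior presomitic mesoderm cells with dTAG-13 and 522 and 253 untreated, and the part of this makeup in these ratios was not tested.

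**Figure D4:**
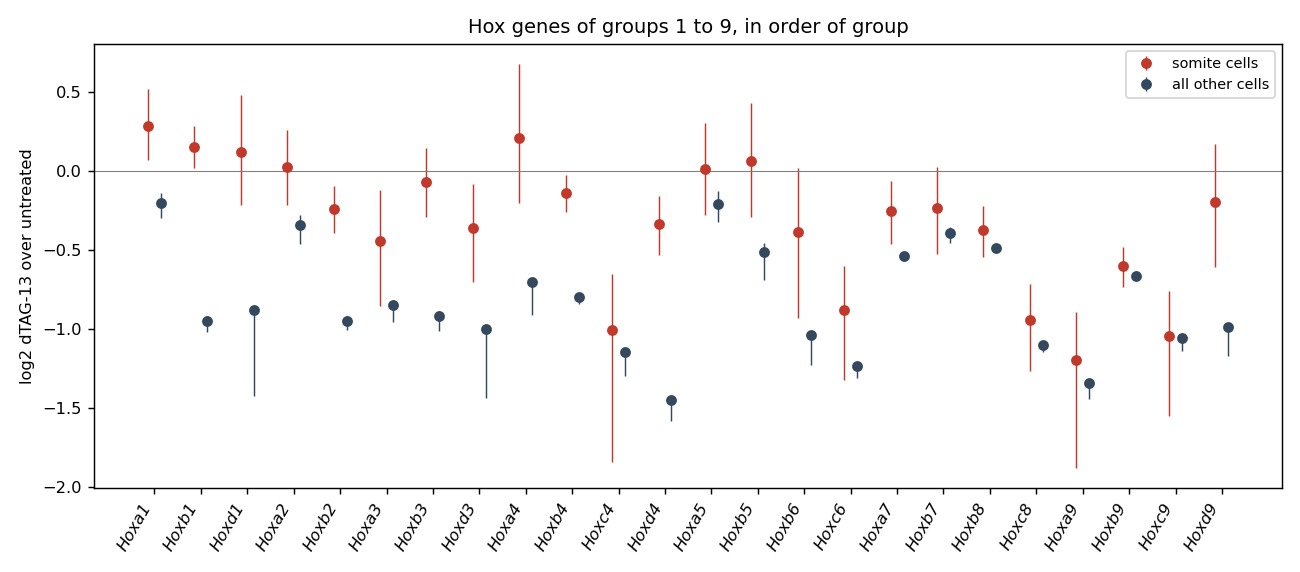
Log2 ratio of dTAG-13 over untreated for the Hox genes of groups 1 to 9 that average at least 5 CPM, ordered by group along the x axis, in somite cells (red) and in all other cells (dark), with 95% counting intervals. In somite cells groups 1 to 4 scatter near 0 apart from Hoxc4, and Hoxc6, Hoxc8, Hoxa9, Hoxb9 and Hoxc9 lie below -0.5, while the other cells lie below 0 at every gene shown.

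Single genes of the BMP, retinoic acid, hedgehog and FGF pathways differed between the libraries. Over all genes with a UMI, 1.93% were at least 1.5-fold higher with dTAG-13 and 1.2% lower. Of 16 BMP response genes 2 were at least 1.5-fold higher with dTAG-13 and 0 lower, with a median of 0.29. Id1, a direct BMP target, stood at 129 CPM with dTAG-13 and 80.1 CPM untreated (0.68), and Msx1 at 20.4 and 9.78 CPM (0.99). Id2 stood at 170.3 and 113 CPM, a ratio of 0.58 just under the limit. The Id1 ratio in other cells was 0.41. For retinoic acid, the membrane retinol transporter gene Stra6 was higher (23.7 CPM with dTAG-13, 13.7 CPM untreated) and the retinoic acid binding protein gene Crabp2 lower (29.3 and 46.5 CPM). Aldh1a2 was at 385 CPM with dTAG-13 and 287 CPM untreated (0.42). The hedgehog receptor and target gene Ptch1 was higher (83.8 CPM with dTAG-13, 53.1 CPM untreated), with Gas1 lower as above. Of 13 FGF and ERK genes 3 were lower, Fgf18 (-0.67), Dusp4 (-0.61) and Fgfbp3 (-0.98), and 0 higher. Of 17 WNT response genes only Rnf43 passed 1.5-fold, at 2.84 CPM with dTAG-13 and 1.27 CPM untreated (0.76).

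**Figure D5:**
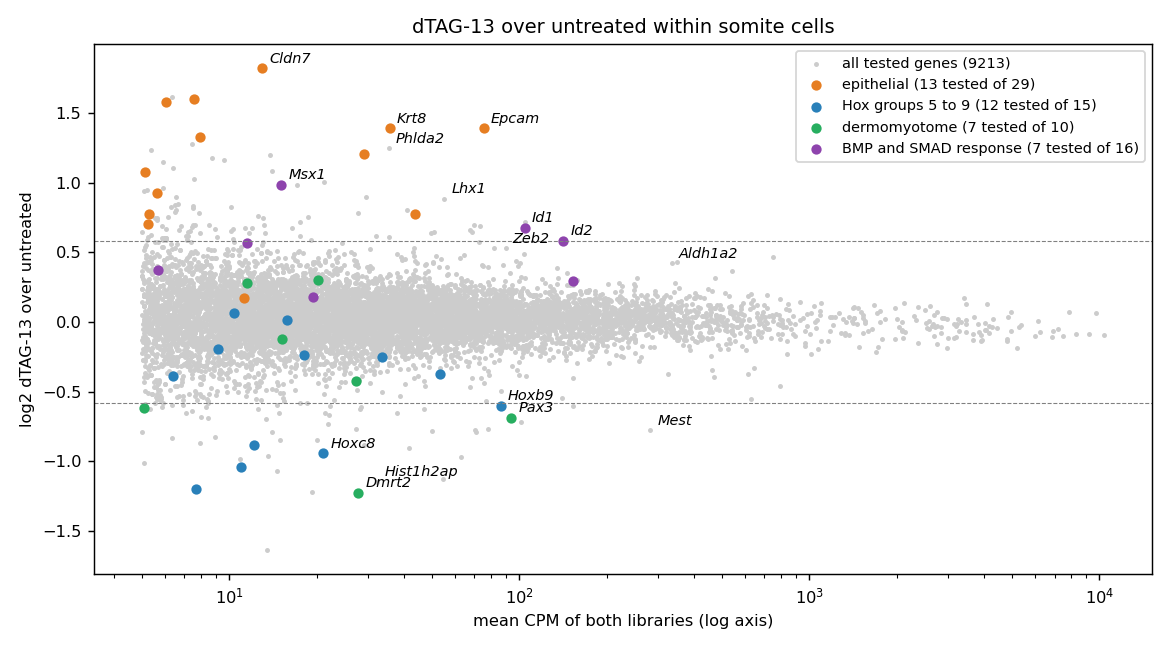
Log2 ratio of dTAG-13 over untreated within somite cells against mean CPM (log axis) for all genes averaging at least 5 CPM (grey), with 4 gene lists in colour and the 1.5-fold limits as dashed lines. The 13 epithelial genes that average at least 5 CPM (orange) lie above the upper line with 1 exception, while dermomyotome (green) and Hox genes of groups 5 to 9 (blue) lie mostly below 0.

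Epithelial genes had the highest median of the lists in somite cells. Of all 29 members 20 were at least 1.5-fold higher with dTAG-13 and 0 lower, with a median log2 ratio of 0.85, where 1.93% of all genes with a UMI were higher. Most members were low, and 13 averaged at least 5 CPM, 7 of them only through their level with dTAG-13. The 6 members with at least 5 CPM in the untreated library were Epcam, Krt8, Krt18, Cldn7, Dsp and Spint2. Of these 5 were higher and 0 lower (median 1.30), where 0.633% of 9164 genes chosen in the same way were higher and 0.775% lower. Spint2 did not pass the limit, at 11.9 CPM with dTAG-13 and 10.5 CPM untreated (0.17). Epcam (chromosome 17, 87635979 to 87651129, plus strand) stood at 109 CPM with dTAG-13 (103 to 116) and 41.1 CPM untreated (38.0 to 44.4), a ratio of 1.39. The keratin gene Krt8 stood at 52.1 CPM with dTAG-13 and 19.2 CPM untreated, and its partner Krt18 at 41.1 and 17.2 CPM. The claudin gene Cldn7 stood at 20.7 CPM with dTAG-13 and 5.15 CPM untreated, a ratio of 1.82. The desmosome gene Dsp stood at 55.3 CPM with dTAG-13 and 32.0 CPM untreated. Of 15 mesenchymal genes 1 was higher (Snai2, 0.61) and 3 lower (Vim, -0.60, Col1a2, -0.87, and Col1a1, -1.16), with a median of -0.16.

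Epithelial genes and markers of other cell types also differed outside the somite cells. Of the 29 epithelial genes 27 were at least 1.5-fold higher in the other cells with dTAG-13, with a median of 1.24, where 1.81% of all genes with a UMI were higher. Spint2 had a ratio of 0.45 there and did not pass the limit. The level of epithelial genes in somite cells was 15.5% to 48.8% of that in other cells with dTAG-13 (22 genes, median 22.5%) and 16.4% to 50.03% untreated (13 genes, median 21.9%). Pluripotent genes stood at medians of 13.99% with dTAG-13 and 22.04% untreated, and surface ectoderm genes at 20.6% and 32.2%. The pluripotent list summed to 145 CPM in somite cells with dTAG-13 and 163 CPM untreated, with 0 of 10 genes at 0. The surface ectoderm list summed to 45.5 CPM with dTAG-13 and 23.1 CPM untreated, with only Trp63 at 0 in both. The neural list summed to 67.5 CPM with dTAG-13 and 99.7 CPM untreated, the endoderm list to 70.4 and 71.2 CPM, the endothelium list to 12.5 and 23.4 CPM, and the notochord list to 12.03 and 10.4 CPM. The neural crest list summed to 32.2 and 31.6 CPM, mostly Ets1 and Snai2, with Sox10 at 0 in both. The lateral and intermediate mesoderm list summed to 121 CPM with dTAG-13 and 77.1 CPM untreated, mostly Lhx1 (71.9 and 38.4 CPM), a gene that also differed between Uncx and Tbx18 cells.

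Somite cells with at least 2 UMIs of Sfn, Upk1a, Dppa5a or Zfp42 numbered 58 with dTAG-13 (15.0%) and 73 untreated (11.8%). Leaving them out was decided with these values known. Without them, 9 of the 29 epithelial genes passed 1.5-fold, all of them higher with dTAG-13, and the median was 0.45. Of the 6 members named above for their untreated level 4 were higher (median 0.74). Epcam then stood at 51.4 CPM with dTAG-13 and 26.3 CPM untreated (0.94), and Krt8 at 30.6 and 16.6 CPM (0.85). Krt18 then had a ratio of 0.55 and Cldn7 of 1.27. Removing the highest doublet scores left 13 of 29 higher (median 0.47), and thinning to 10000 UMIs left 14 higher and 1 lower (median 0.53). Under both, 5 of the 6 stayed past the limit, with medians of 0.88 and 0.71. The part of RNA or doublets from other cell types in the result was not tested. Dmrt2 stayed between -1.42 and -1.06 and Ebf1 between -1.14 and -0.89 over all 14 alternatives.

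Beyond that list, the genes highest with dTAG-13 among those averaging at least 20 CPM included Phlda2, an imprinted gene, at 50.3 CPM with dTAG-13 and 20.6 CPM untreated (1.25). Phlda2 had a ratio of 0.09 in the other cells. Lhx1, a LIM homeobox gene, had a ratio of 0.89 in somite cells and 0.17 in other cells. Within somite cells its ratio was 1.34 (1.16 to 1.58) in those with Pax3 and 0.13 (-0.10 to 0.37) in those without. Ptgds, a prostaglandin D synthase gene, stood at 52.5 CPM with dTAG-13 and 29.7 CPM untreated (0.80), against 0.46 in other cells. The Ptgds ratio was -0.78 (-1.62 to -0.09) in Uncx cells but 1.66 (1.20 to 2.20) in Tbx18 cells. It was 1.07 in Mesp2 or Ripply2 cells and 0.79 in cells with neither Uncx nor Tbx18. Espn, Car2, Sdc4, Arl4a and Upp1 had ratios from 0.70 to 1.01, and in other cells from 0.44 to 1.23.

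ZEB proteins are known to bind E-boxes with the letters CACCTG and to repress epithelial genes. Promoters were searched for these letters on both strands (CACCTG or CAGGTG), from 250 bases before to 50 after each RefSeq start (GRCm38.p6). Of 27025 genes with a promoter entry, 22.6% held a match. Of the epithelial list 19 of 29 genes had an entry and 15 of these held a match (78.9%). Among all genes averaging at least 5 CPM 1374 of 7372 with an entry held a match (18.6%). Among the genes at least 1.5-fold higher with dTAG-13 it was 29 of 72 (40.3%), and 21 of 62 (33.9%) without the epithelial list. Among the genes at least 1.5-fold lower it was 6 of 39 (15.4%). The higher genes, 100 in number, are those averaging at least 5 CPM, and 58 were higher with at least 5 CPM asked of the untreated library. Matches were not counted over those 58. Cldn3 and Rab25 reach that mean only through their level with dTAG-13. A match is only a run of letters and no binding was measured here. Whether matches bear on the ratios was not tested. The promoters of the 5 epithelial genes with the largest ratios follow, 250 bases before the start, 5′ to 3′, with each match in capitals. Cldn3 holds none in these bases, and its only match lies after the start.
Cldn7 promoter, chr11:69965171-69965420, plus strand: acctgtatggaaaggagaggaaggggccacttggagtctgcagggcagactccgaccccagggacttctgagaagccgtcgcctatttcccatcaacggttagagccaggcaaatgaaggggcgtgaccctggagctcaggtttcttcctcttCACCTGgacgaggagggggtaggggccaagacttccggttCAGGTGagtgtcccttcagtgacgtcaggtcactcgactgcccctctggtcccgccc
Cldn3 promoter, chr5:134985964-134986213, plus strand: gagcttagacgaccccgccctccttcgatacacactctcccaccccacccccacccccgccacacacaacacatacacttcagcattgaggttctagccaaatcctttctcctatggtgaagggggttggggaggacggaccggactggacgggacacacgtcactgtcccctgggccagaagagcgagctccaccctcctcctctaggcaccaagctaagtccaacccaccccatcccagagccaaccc
Rab25 promoter, chr3:88548280-88548529, minus strand: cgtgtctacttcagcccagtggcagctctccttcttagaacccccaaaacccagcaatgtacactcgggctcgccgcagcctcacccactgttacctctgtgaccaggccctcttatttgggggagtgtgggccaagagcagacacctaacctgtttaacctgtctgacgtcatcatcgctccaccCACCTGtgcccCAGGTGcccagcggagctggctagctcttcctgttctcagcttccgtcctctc
Epcam promoter, chr17:87635729-87635978, plus strand: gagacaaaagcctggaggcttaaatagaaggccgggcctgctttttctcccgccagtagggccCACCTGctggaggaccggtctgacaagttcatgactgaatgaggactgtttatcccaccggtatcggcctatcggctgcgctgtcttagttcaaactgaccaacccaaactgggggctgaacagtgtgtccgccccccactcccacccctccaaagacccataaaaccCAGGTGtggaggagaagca
Krt8 promoter, chr15:102004343-102004592, minus strand: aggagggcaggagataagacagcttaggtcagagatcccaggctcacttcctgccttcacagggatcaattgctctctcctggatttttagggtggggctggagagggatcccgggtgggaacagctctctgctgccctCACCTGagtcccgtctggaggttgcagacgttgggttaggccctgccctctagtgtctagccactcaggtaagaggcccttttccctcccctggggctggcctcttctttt

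These genes had log2 ratios of dTAG-13 over untreated in somite cells of 1.82 for Cldn7, 1.60 for Cldn3, 1.58 for Rab25, 1.39 for Epcam and 1.39 for Krt8. The Cldn7 promoter shown belongs to the second of its RefSeq starts, and the first held no match. Rab25, a vesicle trafficking gene of epithelia, averaged 9.56 CPM with dTAG-13 and 2.54 CPM untreated, and its ratio was -0.0054 with cells thinned to 10000 UMIs.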

How the data were processed

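Single-cell 3' libraries (10x Genomics v3.1) were counted by the authors with Cell Ranger 6.1.2 on mm10, per the submitters' processing notes; the deposited matrices hold raw UMI counts per gene and barcode. The sources used here do not say if strand was used in counting. The libraries held 7873 barcodes and 176677276 UMIs with dTAG-13 and 7276 barcodes and 158002807 UMIs untreated. Filtering at 1000 genes and 10% mitochondrial UMIs removed 693 and 630 barcodes. Scrublet's own threshold marked 0 and 1 barcodes, so it had not worked and no doublets were removed; removing the highest scores, at 0.8% per 1000 barcodes, was an alternative.

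Somite cells, gene lists and comparisons were chosen with earlier results of these data known. UMIs were summed per cell set and scaled to CPM, and log2 ratios used a prior of 1 CPM and a minimum mean of 5 CPM; lists were counted over every member. Calls needed 1.5-fold between libraries and 2-fold between cell sets. With 1 library per group there was no test, and pools of gastruloids are the only samples. Intervals (exact Poisson for levels, exact conditional for ratios, Clopper-Pearson for shares, all at 95%) cover counting error only and assume independent molecules. Shares of cells with a UMI set between libraries were taken from cells thinned to 5000 UMIs, with the unthinned shares beside them; co-detection of Uncx and Tbx18, and both genes in pluripotent cells, used all UMIs. Named genes were the markers, up to 6 members or the 4 largest ratios of each list, and the 12 highest and 12 lowest ratios between libraries (12 and 6 against other cells) averaging at least 20 CPM; predicted genes were not named, and some genes are not reported here. Other genes named, and the genes of the Uncx, Tbx18, Mesp2 and Ripply2 subsets, were chosen after their values were seen. Positions came from GENCODE gene models on GRCm38, which matched 32235 of 32285 gene IDs, and promoters from RefSeq on GRCm38.p6. Alternatives changed the rule, cell filters, depth, doublets, prior, low-value limit and scaling (edgeR 4.0.16 TMM and DESeq2 1.42.0 size factors, used for scaling factors only). The ratio script was tested on simulated data. Software was Python 3.11.15, numpy 2.4.6, scipy 1.17.1, pandas 2.3.3, scanpy 1.11.5, matplotlib 3.10.9 and R 4.3.3.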

Additional observations from a re-analysis of the deposited data

How the results depend on the processing

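No paired analysis was possible because each group has 1 library, and leaving out a replicate was not possible for the same reason. The share of somite cells was 7.28% with dTAG-13 and 11.9% untreated at a minimum of 1 UMI of Meox1 and Tcf15, 4.26% and 7.92% at 3 UMIs, 6.74% and 11.8% at any T, 3.31% and 7.11% after thinning to 10000 UMIs, and 4.62% and 8.34% without cells holding other-type UMIs. With at most 5% mitochondrial UMIs the untreated share was 8.59%. The difference was -5.07 points at any T and -2.79 points at 5% mitochondrial. Shares on raw UMIs were 58.1% with dTAG-13 and 70.5% untreated for Pax3, 7.75% and 11.9% for Tbx18, and 10.1% and 17.6% for Uncx.

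Genes at least 1.5-fold higher with dTAG-13 numbered 160 at any T, 171 at 5% mitochondrial, 306 after thinning, 39 with a prior of 5 CPM, 287 at a mean of 1 CPM and 374 with no limit on low values. Genes lower numbered 245 after thinning, 31 with the prior of 5, 165 at a mean of 1 CPM and 232 with no limit. Fewer UMIs per sum after thinning, and lower counts per gene without the limit, widen the ratios by construction. With at least 5 CPM asked of the untreated library alone, chosen after seeing the data, 58 were higher and 71 lower (44.96% of calls higher), since genes that reach the mean only with dTAG-13 are left out. Removing the highest doublet scores gave 86 higher and 71 lower (54.8% of calls higher), removing cells with other-type UMIs 83 and 64, and averaging over cells 91 and 71. Against other cells with dTAG-13, 227 genes were lower with the prior of 5, and 268 higher and 803 lower at a mean of 1 CPM; untreated, these were 165, 218 and 561.

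Among the 64 listed or named genes at least 1.5-fold apart, those whose ratio changed sign in an alternative were Rab25 (-0.0054 thinned), Sfn (-0.30 without the highest doublet scores) and Trh (0.18 at 1 UMI, 0.93 at any T, 0.084 at 5% mitochondrial, 0.23 thinned); the cause was not tested. Of 178 genes within 1.5-fold, 79 changed sign, such as Klf2 (0.57, and -0.53 thinned) and Tdh (-0.24, and 1.20 at any T). Dmrt2, Pax3, Uncx, Ebf1, Hoxc8, Epcam, Krt8 and Cldn7 were past 1.5-fold in all 14 alternatives. Id1, Gas1, Ptch1, Igfbp5 and Krt18 missed it in 1 each, Mesp1 and Rhox5 in 3, Hoxb9 and Lbx1 in 4, and Foxd1 and Upp1 in 5.

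Medians of somite over other cells, taken here over the members that average at least 5 CPM, moved as follows with dTAG-13. With the prior of 5 they were 1.76 for other paraxial genes, 1.74 for dermomyotome and 1.29 for the determination front. Sclerotome had 1.24 at 3 UMIs, 1.26 without the highest doublet scores, 1.34 thinned and 1.16 at a mean of 1 CPM. Thinning gave -2.27 for posterior presomitic mesoderm, -2.65 for Hox groups 5 to 9 and -3.23 for epithelial genes, and removing doublet scores -2.55 for the Hox and -3.03 for the epithelial genes. Untreated, the prior of 5 gave 1.91 for other paraxial genes, 1.83 for dermomyotome and -1.74 for posterior presomitic mesoderm. A mean of 1 CPM gave 2.06 for other paraxial genes, 1.97 for dermomyotome and 0.63 for sclerotome. Thinning gave -2.54 for Hox groups 5 to 9 and -2.54 for epithelial genes, and removing doublet scores -2.44 for epithelial genes.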
